A study of Mus musculus with 14 samples.

Results

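The genes described here are 8 developmental regulators of the SIX-, EYA- and DACH-type families, namely Six2, Six4, Six5, Eya1, Eya2, Eya3, Eya4 and Dach1. They were chosen by symbol with their counts and changes in these same libraries known, out of 55367 gene symbols in the deposited tables. All 8 were found in both tables. In GENCODE M21 (GRCm38) they lie on 8 chromosomes: Six2 at chr17:85684277-85688274, Six4 at chr12:73099609-73113456, Six5 at chr7:19094594-19098549, Eya1 at chr1:14168954-14310235, Eya2 at chr2:165595032-165771727, Eya3 at chr4:132638987-132724765, Eya4 at chr10:23102963-23350786 and Dach1 at chr14:97786853-98169765. Because their own values entered the choice, their levels and changes are given as a description and carry no test. Calls of these genes, where given, only mark the side of a threshold.

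SIX-family proteins are homeobox transcription factors that bind DNA, and EYA proteins are their coactivators, which carry a phosphatase domain and bring transcriptional activity to their partner. DACH proteins are corepressors that work in the same circuit. Together with PAX factors they form a network best known from the development of eye, ear, kidney and muscle, and forced expression of EYA1 can prolong the growth of blood progenitors in culture.

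The libraries came from mouse bone marrow cells depleted of lineage-positive cells, of wild-type genotype, grown with SCF, IL6 and IL3. One experiment, called the first here, had 2 groups: 3 libraries came from cells with a lentivirus for luciferase and 3 from cells with a lentivirus for the SETBP1-D868N mutant. In the other, called the second here, all cells carried the SETBP1-D868N lentivirus and were kept for 4 days with DMSO (4 libraries) or with 2.5 µM PF-9363 (4 libraries), an inhibitor of MYST histone acetyltransferases. The mutant was added by a vector to cells that keep their own Setbp1. Strain, age and the number of animals are not given in the sources used here. Nothing says that the replicates were separate animals, so the spread between libraries may be technical.

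Total counts per library ran from 60147266 to 68730322 with luciferase and SETBP1-D868N and were far lower, 7083731 to 10359093, with DMSO and PF-9363. Values are counts on a per-million scale (CPM) with the TMM scaling of edgeR, and log2 fold changes and standard errors (SE) come from an edgeR fit of the whole table. A gene was called when its adjusted p was under 0.05. The tables were normalized separately, so levels of different experiments are only set side by side. Mouse Setbp1 had 17 counts over the luciferase libraries, or 0.0872 CPM of the summed counts (exact 95% Poisson interval 0.0508 to 0.14), and 67 over the SETBP1-D868N libraries (0.345, 0.267 to 0.438). The DMSO libraries, labelled as SETBP1-D868N cells, had 3 counts in all (0.0776 CPM, 0.016 to 0.227) and the PF-9363 libraries 0 (up to 0.103 CPM), so in that experiment the gene did not reach the level of the SETBP1-D868N libraries and gives no check in favour of the label. These intervals cover counting error, and whether the reads came from the vector was not tested. The 8 progenitor markers examined, Kit, Cd34 and Gata2 among them, were above 3 counts in every library of 3 groups, and 7 of the 8 were in DMSO. Muscle markers summed to at most 1.09 CPM in any library, with Pax7 and Myf5 at 0 counts in all 14. Of 12 stromal and endothelial markers, Lum was at 0 counts in all 14 libraries, while 6 had more than 3 counts in every luciferase library and 7 in every SETBP1-D868N library. Pecam1, which blood cells also express, made up most of their sum, and Pdgfrb was at 12.8 ± 0.472 CPM with luciferase and 15.7 ± 2.07 CPM with SETBP1-D868N (SD, n = 3). In bulk RNA, fewer cells of a type and less RNA per cell cannot be told apart.

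The start regions of 6 of the 8 genes were found in the RefSeq table of promoter windows (build GRCm38.p6), those of Eya1 and Eya2 not among them. Each window reaches from 250 bases before the transcription start to 50 bases after it. Those of Six4, Six5, Eya3 and Dach1 are shown because these genes passed the filter on low counts in both experiments and have a window there. Capitals mark the heptamer TCAGGTT, the core of the MEF3 element bound by SIX-family factors, and the hexamer TGACAG of MEIS factors, on either strand. The heptamer TGATTTA, read by HOX proteins with PBX, was searched as well.
Six4: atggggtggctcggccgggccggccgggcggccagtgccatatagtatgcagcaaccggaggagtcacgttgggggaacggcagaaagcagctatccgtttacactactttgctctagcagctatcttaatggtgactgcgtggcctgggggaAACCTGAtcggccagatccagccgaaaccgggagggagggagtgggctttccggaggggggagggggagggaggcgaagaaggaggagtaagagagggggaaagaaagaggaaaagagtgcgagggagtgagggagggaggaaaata
Six5: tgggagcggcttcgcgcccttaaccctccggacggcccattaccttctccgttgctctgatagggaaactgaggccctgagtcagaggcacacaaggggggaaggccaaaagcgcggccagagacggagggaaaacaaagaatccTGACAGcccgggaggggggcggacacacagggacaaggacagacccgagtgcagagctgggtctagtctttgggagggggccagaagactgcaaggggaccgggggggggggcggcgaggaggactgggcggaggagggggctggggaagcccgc
Eya3: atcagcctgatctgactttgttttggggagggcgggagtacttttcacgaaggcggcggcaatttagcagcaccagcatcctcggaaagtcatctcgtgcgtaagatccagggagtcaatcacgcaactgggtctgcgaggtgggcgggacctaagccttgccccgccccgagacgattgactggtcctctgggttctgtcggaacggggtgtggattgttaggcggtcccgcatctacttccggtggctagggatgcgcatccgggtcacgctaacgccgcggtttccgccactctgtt
Dach1: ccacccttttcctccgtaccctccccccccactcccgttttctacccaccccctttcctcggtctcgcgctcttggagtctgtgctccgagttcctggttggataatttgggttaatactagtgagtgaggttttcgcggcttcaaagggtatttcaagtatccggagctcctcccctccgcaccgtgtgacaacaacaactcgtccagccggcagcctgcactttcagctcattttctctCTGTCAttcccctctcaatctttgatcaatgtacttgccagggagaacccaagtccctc

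The windows lie at chr12:73113196-73113495 on the minus strand for Six4, chr7:19094294-19094593 on the plus strand for Six5, chr4:132638796-132639095 on the plus strand for Eya3 and chr14:98169716-98170015 on the minus strand for Dach1. In the Six4 window the MEF3 core was found 1 time, on the strand opposite to the gene, from 97 bases before the start. This heptamer is present in 4.07% of all 32851 windows, and none of the other windows of these 6 genes held it. The alternative Six4 window, which begins further upstream, did not hold it. Single matches to the MEIS hexamer, present in 19.2% of windows, lay 105 bases before the start of Six5 and 9 bases before that of Dach1, and the Six2 window held 2. The HOX and PBX heptamer, present in 2.97% of windows, was in none of them. CpG pairs numbered 16 in Six4, 17 in Six5, 25 in Eya3 and 13 in Dach1, against a median of 7 over all windows, and 37 in Six2. Fewer CpG pairs were held by 67% of all windows for Six4, 68.6% for Six5, 81.6% for Eya3, 62.1% for Dach1 and 94.4% for Six2. The motif hits are matches of letters and not binding sites.

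Of the 8 genes, 6 passed the filter on low counts in both experiments: Six4, Six5, Eya1, Eya2, Eya3 and Dach1. With SETBP1-D868N, 4 of these 6 were called, 3 higher and 1 lower, and 4 had groups without overlap, where 47.2% of all 15794 genes tested were called, 24.5% higher and 22.7% lower, and 56.7% had groups without overlap. With PF-9363, 4 of 6 were called, again 3 higher and 1 lower, and 4 had groups without overlap, where 76.0% of all 13456 genes tested were called, 36.6% higher and 39.4% lower, and 70.3% had groups without overlap. Since the choice of genes used these values, nothing is read from these counts.

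**Figure D1:**
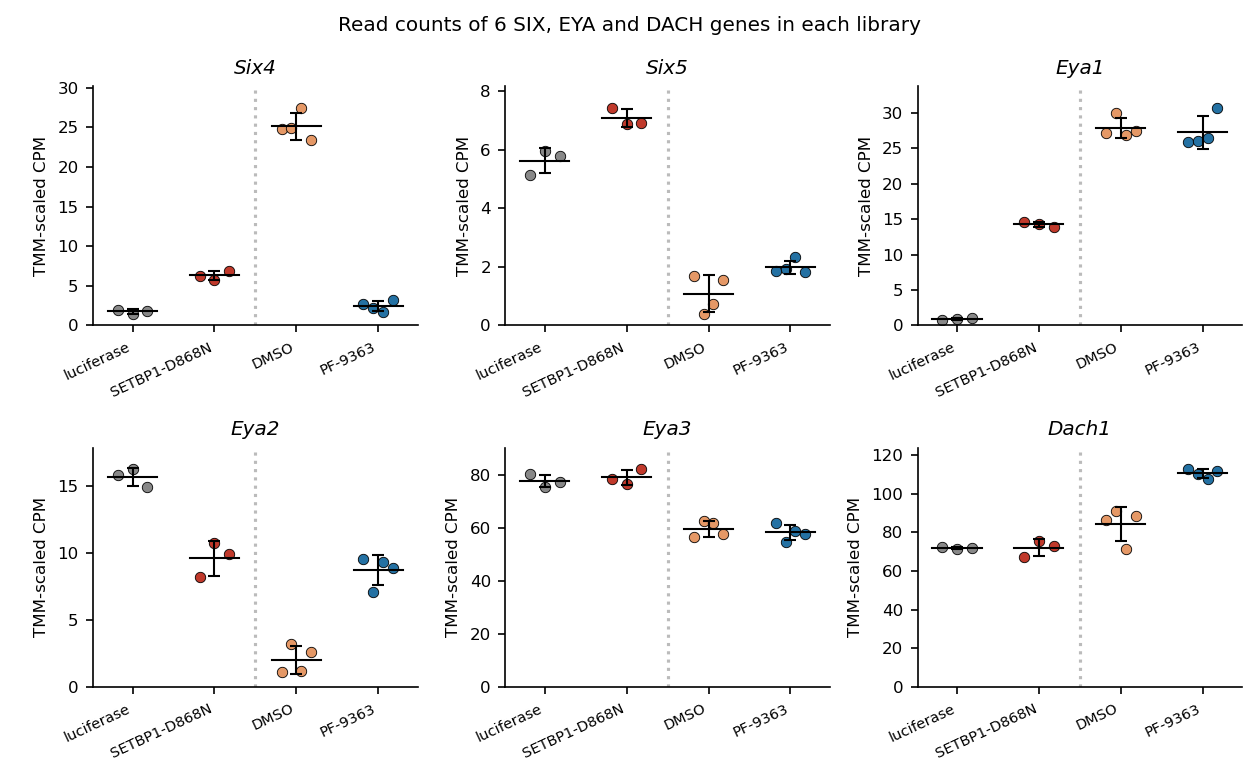
TMM-scaled CPM of 6 genes (vertical axes, from 0) in each of 14 libraries (points), with the group mean and SD as bars; the dotted line separates the experiments. Eya1 lies near 14 CPM in every SETBP1-D868N library and near or under 1 in every luciferase library, while Six4 lies at 23.4 or above with DMSO and at 3.25 or below with PF-9363.

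Among the DNA-binding members, Six4 was higher in SETBP1-D868N cells and lower with PF-9363. SIX4 is a homeobox factor of muscle and sensory precursors. Luciferase libraries 1 to 3 held 1.99, 1.44 and 1.89 CPM of Six4, and SETBP1-D868N libraries 1 to 3 held 6.31, 5.76 and 6.88. All 3 libraries with the mutant lay above all 3 controls. The log2 fold change was 1.83 (SE 0.13), or 3.56-fold, which ranked 73 among the increases of all genes tested. In the second experiment Six4 stood at 24.7, 24.9, 27.5 and 23.4 CPM in DMSO 1 to 4 and at 2.67, 2.19, 1.71 and 3.25 CPM in PF-9363 1 to 4. The groups were far apart, at 25.1 ± 1.69 and 2.45 ± 0.659 CPM (SD, n = 4), a log2 fold change of -3.31 (SE 0.16) and a 9.93-fold lower level. The treated libraries rested on 11 to 30 counts each.

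Six5, which neighbours the myotonic dystrophy kinase gene Dmpk, differed by little with SETBP1-D868N. It was measured at 5.13, 5.97 and 5.78 CPM with luciferase and at 7.43, 6.89 and 6.90 CPM with SETBP1-D868N. All 3 mutant libraries lay above the controls, and the log2 fold change was 0.33 (SE 0.082). In the second experiment Six5 rested on few counts, 17, 4, 8 and 17 in the DMSO libraries and 18, 15, 15 and 17 in the PF-9363 libraries. The corresponding levels were 1.68, 0.398, 0.748 and 1.54 CPM against 1.85, 1.93, 2.33 and 1.84 CPM. DMSO 2 and 3 were low and DMSO 1 and 4 were close to the treated libraries. The log2 fold change of 0.84 (SE 0.38) was just past the threshold. It was no longer past it without DMSO 2 (0.57), DMSO 3 (0.68) or any single PF-9363 library (0.78 to 0.88), nor under 6 of 9 other settings.

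Six2, a factor of nephron progenitors in the kidney, was near the limit of detection. It had 3, 0 and 0 counts in luciferase 1 to 3 and 4, 2 and 1 in SETBP1-D868N 1 to 3, a ratio of 2.27 with an exact 95% interval from 0.517 to 13.6 for counting error alone. DMSO libraries held 2, 0, 0 and 2 counts and every PF-9363 library held 0, where a count of 0 allows up to 0.290 to 0.424 CPM. No difference in Six2 was detectable at this depth.

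Eya1, a coactivator whose loss causes defects of ear and kidney, had the largest change of the 6 fitted genes with SETBP1-D868N and was not called with PF-9363. It was at 0.714, 0.875 and 1.08 CPM in luciferase 1 to 3 and at 14.6, 14.4 and 13.9 CPM in SETBP1-D868N 1 to 3. The 3 mutant libraries differed by less than 1 CPM from each other and lay far above every control. This was a log2 fold change of 4.02 (SE 0.11) or 16.2-fold, which ranked 16 among the increases. Six5 ranked 1684, Eya3 7349 and Dach1 7950 among the increases, and Eya2 1038 among the decreases. As the genes were chosen with these values known, the ranks are description only. With DMSO, Eya1 was at 27.2, 30.1, 26.9 and 27.4 CPM, and with PF-9363 at 25.9, 26.1, 26.4 and 30.7 CPM. The groups overlapped, with a log2 fold change of -0.030 (SE 0.099). Scaling by library size alone, which moved the median gene by -0.23 on the log2 scale, gave -0.26 and a call.

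Eya2 took the opposite course to Six4. Its levels were 15.9, 16.2 and 14.9 CPM in luciferase 1 to 3 and 8.18, 10.7 and 9.93 CPM in SETBP1-D868N 1 to 3. All 3 mutant libraries were below all 3 controls, and the log2 fold change was -0.71 (SE 0.087), or 1.63-fold lower. In the DMSO libraries Eya2 was at 1.09, 3.19, 1.22 and 2.63 CPM, and in the PF-9363 libraries at 9.56, 7.08, 9.32 and 8.87 CPM. DMSO 1 and 3 were lower than DMSO 2 and 4, on 11 and 13 against 32 and 29 counts, and every treated library was above all 4. The log2 fold change was 2.10 (SE 0.26), or 4.27-fold, and it ranged from 1.89 to 2.38 when single libraries were left out.

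Eya3, the most evenly expressed of the 4 EYA genes, hardly differed in either comparison. EYA3 is known as a phosphatase acting on histone H2AX. Its level was 77.7 ± 2.36 CPM with luciferase and 79.2 ± 2.81 CPM with SETBP1-D868N (SD, n = 3), a log2 fold change of 0.026 (SE 0.035). With DMSO it was 59.8 ± 3.03 CPM and with PF-9363 58.4 ± 2.92 CPM (SD, n = 4), a log2 fold change of -0.033 (SE 0.075). Groups overlapped in both experiments. Under library-size scaling the second value became -0.26 and passed the threshold, as for Eya1.

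Eya4, a gene of hearing and heart muscle, was barely detected. It had 10, 6 and 5 counts in luciferase 1 to 3 against 2, 2 and 1 in SETBP1-D868N 1 to 3. The summed counts of 21 and 5 give a ratio of 0.231 with an exact 95% interval of 0.0681 to 0.63 for counting error. In the second experiment all 8 libraries held 0 counts. It did not pass the filter on low counts, so it was not in the main fit. Without the filter it was not called with SETBP1-D868N (log2 fold change -2.02, SE 0.83).

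Dach1, the corepressor of the circuit, was level in the first comparison and modestly higher in the second. It was at 72.3, 71.6 and 71.8 CPM with luciferase and at 67.3, 75.6 and 73.1 CPM with SETBP1-D868N, with control values inside the range of the mutant ones. The log2 fold change was 0.0022 (SE 0.040). DMSO libraries held 86.2, 91.1, 71.1 and 88.3 CPM and PF-9363 libraries 113, 110, 107 and 112 CPM. DMSO 3 was the lowest, and no DMSO library reached a treated one. The log2 fold change was 0.39 (SE 0.073), or 1.31-fold, and was 0.16 under library-size scaling.

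**Figure D2:**
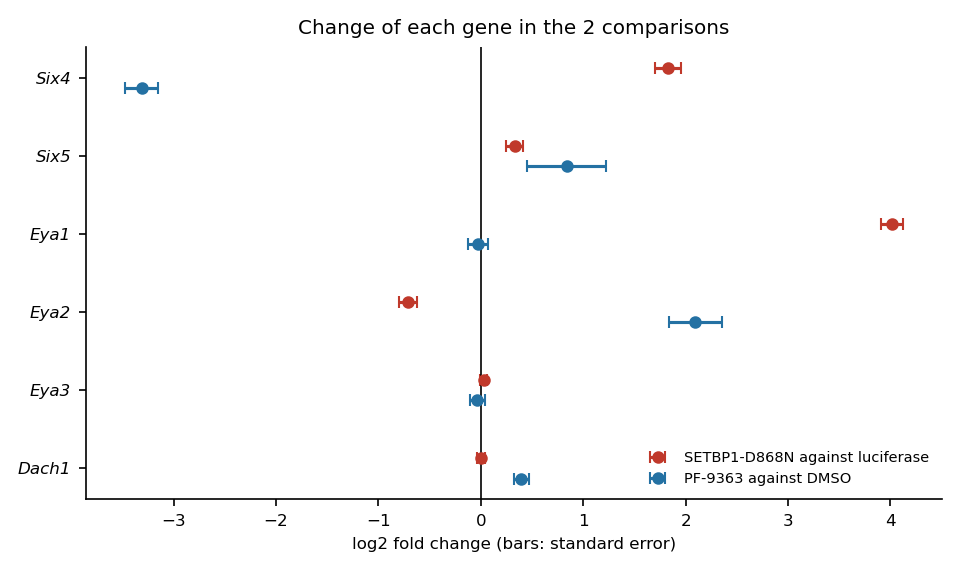
Log2 fold change (horizontal axis, bars are SE) of 6 genes for SETBP1-D868N against luciferase (red, n = 3 per group) and PF-9363 against DMSO (blue, n = 4 per group). Six4 and Eya2 lie on opposite sides of 0 in the 2 comparisons, Eya1 lies at 4.02 and -0.030, and Eya3 is near 0 in both.

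Levels of different genes were compared per kilobase of annotated exon (GENCODE M21, all exons of a gene merged), which ran from 2.119 kb for Six2 to 10.86 kb for Six4. In luciferase cells the order was Eya3 at 13.8 ± 0.417 CPM per kb, Dach1 at 9.82 ± 0.0506, Eya2 at 5.29 ± 0.229, Six5 at 1.87 ± 0.146, Six4 at 0.163 ± 0.0269 and Eya1 at 0.114 ± 0.0233 (SD, n = 3). Neighbours in this order did not overlap, with the exception of Six4 and Eya1. With SETBP1-D868N the first 4 kept that order, followed by Eya1 at 1.83 ± 0.0458 and Six4 at 0.582 ± 0.0516 CPM per kb, with no overlap between neighbours among these 6. In DMSO cells Dach1 (11.5 ± 1.22) and Eya3 (10.6 ± 0.536) overlapped at the top, then came Eya1 (3.57 ± 0.186) and Six4 (2.32 ± 0.156), and Eya2 (0.685 ± 0.351) overlapped Six5 (0.363 ± 0.206) in CPM per kb (SD, n = 4). With PF-9363 the order was Dach1, Eya3, Eya1, Eya2, Six5 and Six4, from 15.1 ± 0.307 down to 0.226 ± 0.0607 CPM per kb, again without overlap. Six4 thus had rank 4 with DMSO and rank 6 with PF-9363.

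**Figure D3:**
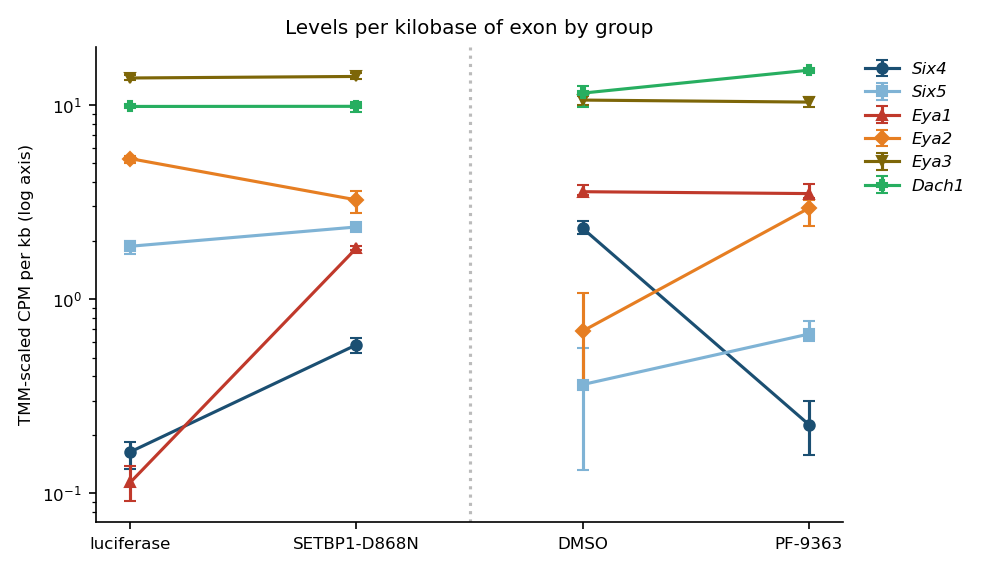
Mean level in TMM-scaled CPM per kilobase of exon (vertical log axis) of 6 genes in 4 groups; bars run from the lowest to the highest library, and lines join groups of the same experiment. Eya1 crosses Six4 between luciferase and SETBP1-D868N, and Six4 has rank 4 with DMSO and rank 6 with PF-9363.

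The make-up of the EYA family was given by the share of each gene in the summed CPM per kb of the 4 EYA genes. That sum was 19.2 ± 0.433 CPM per kb with luciferase and 19.1 ± 0.577 with SETBP1-D868N (SD, n = 3). Eya3 was the major transcript throughout, from 59.7% to 75.0% of the sum in every library. Eya1 made up 0.596% ± 0.133 with luciferase and 9.61% ± 0.528 with SETBP1-D868N, while Eya2 made up 27.6% ± 1.13 and 17.0% ± 2.06 (SD, n = 3). In DMSO cells Eya1 held 24.1% ± 0.757 and Eya2 4.54% ± 2.14 of the sum, and in PF-9363 cells 20.9% ± 1.77 and 17.5% ± 1.42 (SD, n = 4). The share of Eya3 was 71.4% ± 2.16 with DMSO and 61.7% ± 1.46 with PF-9363. Cells of the second experiment that carried SETBP1-D868N without inhibitor thus had a larger Eya1 share and a smaller Eya2 share than the SETBP1-D868N cells of the first, which differed in RNA input, library preparation and depth, so that the experiments were not compared by a test.

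**Figure D4:**
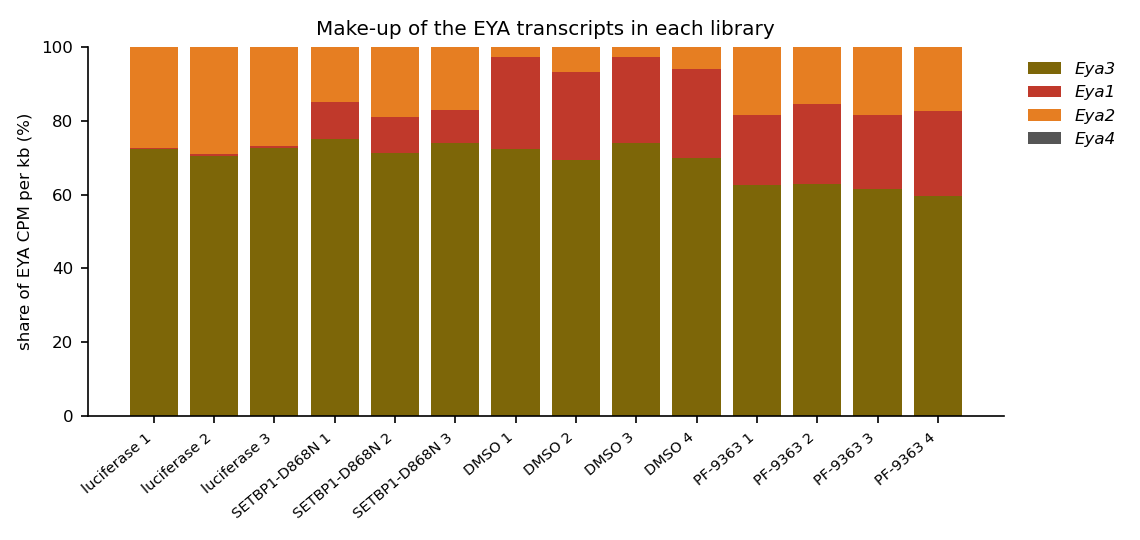
Share of each EYA gene in the summed EYA CPM per kb (stacked bars, vertical axis in percent) in each of 14 libraries. Eya3 holds at least 59.7% in every library, and Eya1 is under 1% in the 3 luciferase libraries and at least 18.96% in the 8 libraries of the second experiment; Eya4, at most 0.0803%, is too small to see.

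Other genes of the network came from 5 lists of 58 genes in all, of which 40 were tested for SETBP1-D868N and 35 for PF-9363. With SETBP1-D868N 10 were called higher and 10 lower, and with PF-9363 14 higher and 12 lower, against the shares of all genes given above. Their median log2 fold changes were -0.021 and 0.016, beside 0.0043 and -0.038 for all genes tested.

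Mnat1, a subunit of the CDK-activating kinase, lies 10.3 kb from Six4 on chromosome 12. It fell with PF-9363 from 36.6 ± 3.05 to 15.6 ± 2.82 CPM (log2 fold change -1.23, SE 0.12, edgeR adjusted p 1.44e-10). In that comparison 39.4% of all genes tested were called lower, and a link to Six4 was not tested. With SETBP1-D868N Mnat1 was not called (log2 fold change 0.12, SE 0.049, edgeR adjusted p 0.0592), but was under library-size scaling (0.17) and without SETBP1-D868N 3 (0.15).

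PAX genes, the upstream factors of the network in the eye and kidney, were mostly silent: of 9, 4 had 0 counts in every luciferase and SETBP1-D868N library and 5 in every DMSO and PF-9363 library. Pax8, a factor of kidney and thyroid, fell with PF-9363 from 6.43 ± 0.504 to 0.888 ± 0.671 CPM (log2 fold change -2.74, SE 0.32, edgeR adjusted p 8.46e-09). With SETBP1-D868N it was not called, at a log2 fold change of 0.13 (SE 0.20). Pax5, the B cell factor, was called lower with SETBP1-D868N on 41 and 15 summed counts (log2 fold change -1.47, SE 0.46, edgeR adjusted p 0.0199), a call lost without luciferase 1 (-1.26), SETBP1-D868N 2 (-1.22) or SETBP1-D868N 3 (-1.33).

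Protein partners of the 3 families were tested for 16 of 17 genes in the first experiment, with 2 called higher and 6 lower (median log2 fold change -0.19). In that experiment 24.5% of all genes tested were called higher and 22.7% lower. Gnaz, a G protein subunit bound by EYA2, fell from 13.4 ± 1.33 to 7.15 ± 0.216 CPM (log2 fold change -0.91, SE 0.076, edgeR adjusted p 1.63e-06). Skil, a corepressor related to DACH proteins, fell by 0.50 on the log2 scale (SE 0.041, edgeR adjusted p 1.62e-06), and the Groucho corepressor Tle3 fell by 0.27 (SE 0.024, edgeR adjusted p 3.16e-06). Gnai2, a second G protein subunit, fell by 0.23 on the log2 scale (SE 0.023, edgeR adjusted p 6.30e-06). With PF-9363, 15 partners were tested, with 8 called higher and 2 lower (median 0.70), where 36.6% of all genes were called higher and 39.4% lower. Gnaz rose from 0.950 ± 0.163 to 7.92 ± 1.72 CPM (log2 fold change 3.04, SE 0.27, edgeR adjusted p 3.13e-11). The coactivator acetyltransferase Crebbp rose by 1.97 (SE 0.093, edgeR adjusted p 8.27e-15) and Skil by 1.93 (SE 0.074, edgeR adjusted p 2.04e-19). Gmnn, the replication inhibitor geminin and a partner of SIX3, fell from 64.7 ± 6.08 to 11.7 ± 2.12 CPM (log2 fold change -2.46, SE 0.11, edgeR adjusted p 1.14e-17). Six3 itself had 0 counts in every DMSO and PF-9363 library.

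With SETBP1-D868N, 24.5% of all genes tested were called higher and 22.7% lower. Genes around the EYA phosphatase and the DNA damage response showed 5 of 11 called higher and 0 lower (median log2 fold change 0.035). The calls were small: Smarca5, a chromatin remodeller, rose by 0.21 (SE 0.028, edgeR adjusted p 6.50e-05) and Ppp2ca, the catalytic subunit of PP2A, by 0.12 (SE 0.024, edgeR adjusted p 0.00130). Calls of the kinase Mapk8 (0.14, SE 0.048, edgeR adjusted p 0.0359) and the PP2A subunit Ppp2r2a (0.090, SE 0.030, edgeR adjusted p 0.0280) were lost under DESeq2 (0.13 and 0.082) and with the replicate number as a block. Mapk8 was also not called without any 1 luciferase library (0.13 to 0.14) or without SETBP1-D868N 2 (0.086) or 3 (0.13), and Ppp2r2a without luciferase 2 (0.078) or 3 (0.084) or SETBP1-D868N 2 (0.075) or 3 (0.078). With PF-9363, 10 were tested, and 1 was called higher and 7 lower (median -0.67). Of all genes tested with PF-9363, 36.6% were called higher and 39.4% lower. Plk1, a mitotic kinase, fell from 91.4 ± 4.83 to 11.7 ± 5.95 CPM (log2 fold change -2.95, SE 0.31, edgeR adjusted p 9.58e-05). H2ax, the histone that EYA3 acts on, fell from 101 ± 9.84 to 26.2 ± 8.73 CPM (log2 fold change -1.94, SE 0.21, edgeR adjusted p 7.44e-05). Mdc1, which reads phosphorylated H2AX, fell by 0.94 on the log2 scale (SE 0.082, edgeR adjusted p 2.83e-11), and Smarca5 fell by 0.82 (SE 0.067, edgeR adjusted p 4.66e-12).

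Genes known as targets of SIX-family factors from other tissues were tested for 9 of 16 in the first experiment, with 2 called higher and 3 lower (median log2 fold change 0.019). In that experiment 24.5% of all genes tested were called higher and 22.7% lower. Igfbp5, a binding protein of insulin-like growth factors, fell from 219 ± 3.34 to 95.5 ± 4.47 CPM (log2 fold change -1.20, SE 0.034, edgeR adjusted p 4.49e-10). The cyclin Ccnd1 fell by 0.74 on the log2 scale (SE 0.058, edgeR adjusted p 1.40e-06) and the TGF-beta receptor Tgfbr1 by 0.30 (SE 0.032, edgeR adjusted p 1.02e-05). Myc rose by 0.48 (SE 0.028, edgeR adjusted p 1.03e-07). With PF-9363 8 were tested, with 5 called higher and 1 lower (median 1.12), where 36.6% of all genes were called higher and 39.4% lower. Igfbp5 rose from 73.8 ± 9.41 to 309 ± 22.7 CPM (log2 fold change 2.06, SE 0.079, edgeR adjusted p 1.22e-17), and Tgfbr1 rose by 1.62 (SE 0.068, edgeR adjusted p 1.56e-18). The lymphatic growth factor Vegfc rose from 0.837 ± 0.538 to 4.48 ± 1.07 CPM (log2 fold change 2.41, SE 0.38, edgeR adjusted p 2.27e-06). Myc fell from 177 ± 6.14 to 30.2 ± 2.90 CPM (log2 fold change -2.55, SE 0.075, edgeR adjusted p 4.90e-22). Muscle targets such as Myog, Myod1 and Ckm did not pass the filter on low counts in the second experiment.

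**Figure D5:**
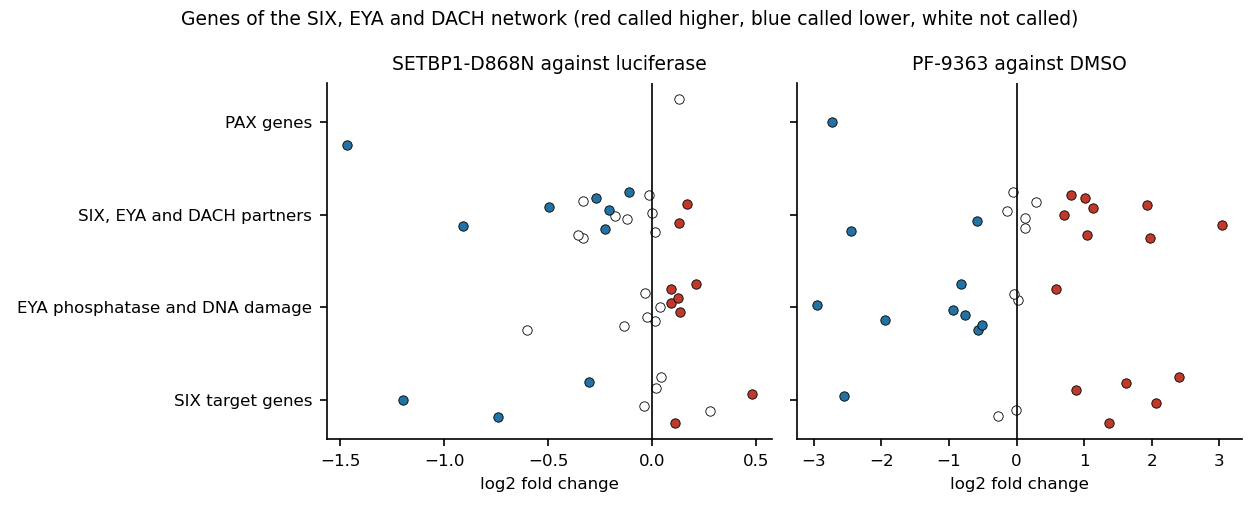
Log2 fold change (horizontal axes) of each tested gene of 4 network lists (rows) for SETBP1-D868N against luciferase and PF-9363 against DMSO; red points were called higher, blue lower, and white were not called. Of the partners, 6 of 16 tested are blue on the left and 8 of 15 tested are red on the right. Of all genes tested, 22.7% were called lower on the left and 36.6% higher on the right.

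Marker genes of other blood cells differed between the groups, and within most lists not in 1 direction. The counts of calls below stand beside 36.6% of all genes called higher and 39.4% lower with PF-9363. With SETBP1-D868N these shares were 24.5% and 22.7%. Progenitor markers summed to 193 to 208 CPM in DMSO libraries and 547 to 642 CPM in PF-9363 libraries, with 4 of 8 called higher, Gata2 and Kit among them, and Flt3 and Cd27 called lower. Mast cell and basophil markers summed to 1205 to 1536 CPM in DMSO libraries and 4498 to 5457 CPM in PF-9363 libraries, and monocyte and macrophage markers to 1548 to 1643 and 3223 to 3699 CPM, with all 8 of either list above 3 counts in every library. Of the mast cell list 7 were called higher and 0 lower. Of the monocyte list 6 were called higher, with Mrc1 at 230 ± 22.5 and 2076 ± 227 CPM, while Ly6c2 fell from 1203 ± 71.8 to 307 ± 68.0 CPM (SD, n = 4) and Cx3cr1 was not called. Neutrophil markers summed to 17119 to 20339 CPM with DMSO and 16198 to 17620 CPM with PF-9363, which overlap. Of that list 1 was called higher, 3 lower and 4 were not called. The granule genes of early myeloid cells fell, Elane from 1450.01 ± 70.7 to 1.74 ± 1.49 CPM and Mpo from 2315 ± 304 to 6.34 ± 4.03 CPM (SD, n = 4). Camp also fell, from 88.7 ± 8.37 to 20 ± 0.706 CPM, while Ltf rose from 1237 ± 45.9 to 2678 ± 201 CPM (SD, n = 4). With SETBP1-D868N the neutrophil sum was 15629 to 18065 CPM against 23917 to 24892 CPM with luciferase. Of that list 6 of 8 were called lower and Elane and Mpo higher, and all 8 monocyte markers were called lower. The mast cell and basophil sum was 6068 to 6258 CPM against 5178 to 5321 CPM with luciferase, with 5 called higher and 3 lower. Progenitor markers had 4 called higher and 4 lower. The part of these markers in the values of Six4, Eya2, Dach1 and the network genes was not tested.

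The genes whose profile was most like that of each of the 6 were sought by the root mean square difference of log2 CPM over the 14 libraries, centred within each experiment, among 12375 other genes tested in both. Closest to Six4 were Rhobtb3 (0.34), Shisa2 (0.37) and Ccm2l (0.43), where the median gene was at 1.39 (all on the log2 scale). Rhobtb3 had 2.80 ± 0.210 CPM with luciferase and 6.44 ± 0.459 with SETBP1-D868N, and 9.74 ± 0.493 with DMSO and 0.504 ± 0.110 with PF-9363. Nearest to Eya1 was Rhoj (0.33), a small GTPase, followed at a distance by Shisa3 (0.69) and the carbonic anhydrase Car2 (0.69). Rhoj was at 3.44 ± 0.210 and 32.6 ± 1.11 CPM with luciferase and SETBP1-D868N and at 6.68 ± 0.658 and 6.73 ± 1.27 CPM with DMSO and PF-9363. Neither Rhoj nor Eya1 was called with PF-9363.

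Nearest to Eya2 were Gm10521 (0.17), Lpp (0.21) and H2-Q6 (0.22), and nearest to Six5 were Stk32c (0.21), Inafm1 (0.24) and 9930014A18Rik (0.27). Eya3 had the flat genes Pogz (0.039), Hsd17b4 (0.039) and Copa (0.041) beside it, and Dach1 had Akap10 (0.051), Sbno1 (0.052) and Arih1 (0.054). Likeness here is a distance over 14 libraries that share their depth and groups, and says nothing of shared function.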

How the data were processed

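Polyadenylated RNA of 14 libraries was sequenced in 2 experiments, from 500 ng of RNA with the Watchmaker kit in the first and from 100 ng at Novogene in the second, per the labels' protocols. The deposited tables give unnormalized counts for each gene symbol, per the labels. The submitters' processing notes name STAR, DESeq2 and the builds GRCm38 and mm10, and the annotation, counting program and strand setting are not given in the sources used here. No exon of the 8 genes overlaps an exon of another gene in GENCODE M21.

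Genes were kept by filterByExpr (minimum count 10, minimum total 15), scaled by TMM and tested with edgeR 4.0.16 (glmQLFit, robust, glmQLFTest; R 4.3.3) per experiment, with Benjamini-Hochberg adjustment over all genes tested. SE is the absolute log2 fold change over the square root of F. Protein sequences of the 8 genes were not analysed here. Some genes of the lists are counted but not reported singly here. The 8 genes, the lists and the motifs were chosen with earlier results of these data known. Alternatives were RLE or library-size scaling, other filters, DESeq2 1.42.0, limma-voom (limma 3.58.1), no robust estimation, a prior count of 2 in place of 0.125, the replicate number as a block and leaving out each library. Genes named are the 8, up to 4 called genes per list and comparison with the largest change, the nearest protein-coding neighbours and the 3 nearest profiles (prior count 2). A count of 0 allows up to 3 counts of the library total. Intervals and limits cover counting error only, since reads are not independent molecules.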

Additional observations from a re-analysis of the deposited data

Results flagged for a closer look

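Eya1 had 1 library apart from the others of its group in both groups of the second experiment, by the gap to the nearest value over the range of 4 libraries. DMSO 2 stood at 30.1 CPM where the other 3 held 26.9 to 27.4 CPM, a gap of 0.837 of the range. PF-9363 4 stood at 30.7 CPM where the other 3 held 25.9 to 26.4 CPM, a gap of 0.896 of the range. Of 53 gene and group pairs examined this way 2 stood apart in this way, and chance gives about 1 in 20.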

How the results depend on the processing

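Counts of called genes kept within 1.5 times of their values under all alternatives run, with the exception of the members called lower with PF-9363, which were 3 in place of 1 under library-size scaling, where Eya1 and Eya3 joined Six4. That scaling also moved the share of higher calls among all genes from 51.9% to 62.1% with SETBP1-D868N and from 48.1% to 36.2% with PF-9363. Alternatives were run for the members, the network genes named and, added after seeing the data, for 6 neighbours and Pax8, while the log2 fold changes of the nearest profiles were not rerun. Zmynd8 with PF-9363 changed from a call at 0.19 to -0.043 under library-size scaling, which moved the median gene by -0.23. The other changes of sign were in genes not called, and their cause was not tested. Xkr8 with PF-9363 ran from -0.32 to 0.042 when single libraries were left out. Dach1 with SETBP1-D868N was -0.0056 with RLE factors and with DESeq2, -0.0031 with a mean count of at least 10, and -0.040 to 0.045 when single libraries were left out. Over the same omissions Eya3 ran from -0.0045 to 0.051 with SETBP1-D868N and from -0.064 to 0.0082 with PF-9363, and Eya1 from -0.086 to 0.0038 with PF-9363. Leaving out single libraries gave 6436 to 7086 called genes in the first comparison and 10013 to 10261 in the second. Luciferase 1 stood apart from its group over the whole table. Its counts differed from luciferase 2 and 3 at a chi-square per degree of freedom of 24.6 and 25.2, against 2.21 between those. Pairs of SETBP1-D868N libraries were at 7.5 to 11.8, and the cause was not tested. No pairing by replicate number was seen, as same-numbered deviations correlated at -0.097 to -0.037 and at -0.040 to 0.0075. With so few libraries per group these values cannot exclude a shared animal or day, and the labels do not settle it. With the replicate number as a block, 6640 and 10124 genes were called in place of 7448 and 10228. Of the 3 nearest profiles, 2 were kept for Six4, Six5, Eya1 and Eya2 with a prior count of 0.5. The depth of the second experiment limits Six2, Six5 and Eya4.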

Other observations

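Chromosomal neighbours of the other members gave further values. Ptafr, the receptor of platelet-activating factor, lies 56.3 kb from Eya3. It fell with SETBP1-D868N from 44.3 ± 0.740 to 33.9 ± 1.92 CPM (log2 fold change -0.39, SE 0.044, edgeR adjusted p 1.78e-05) and rose with PF-9363 from 31.1 ± 0.983 to 135 ± 7.45 CPM (2.12, SE 0.072, edgeR adjusted p 1.32e-20), while Eya3 beside it differed by 0.026 and -0.033. Xkr8, a phospholipid scramblase gene 0.131 kb from the other end of Eya3, rose by 0.26 with SETBP1-D868N (SE 0.072, edgeR adjusted p 0.00959) and was not called with PF-9363 (-0.13, SE 0.22). Zmynd8, a chromatin reader 12.4 kb from Eya2, had a log2 fold change of -0.092 with SETBP1-D868N (SE 0.035, edgeR adjusted p 0.0479), with overlapping groups. That call was lost under DESeq2, limma-voom, library-size scaling, the replicate block and the fit without robust estimation, and without luciferase 1 (-0.079), 2 (-0.084) or 3 (-0.11) or SETBP1-D868N 1 (-0.066) or 2 (-0.090). With PF-9363 it was called higher (0.19, SE 0.061, edgeR adjusted p 0.00689), but was -0.043 and not called under library-size scaling. Dmpk, 0.772 kb from Six5, was called higher with SETBP1-D868N (log2 fold change 0.27, SE 0.092, edgeR adjusted p 0.0315), a call lost under DESeq2 (0.26), without the filter, with the replicate block, and without luciferase 2 (0.23) or 3 (0.27) or SETBP1-D868N 2 (0.27) or 3 (0.23). Srbd1, 296 kb from Six2, fell with PF-9363 by 1.16 on the log2 scale (SE 0.12, edgeR adjusted p 1.16e-09). Of the 16 neighbouring genes, 11 were tested in the first experiment, with 3 called higher and 2 lower, and 7 in the second, with 2 higher and 4 lower. Over all genes tested, 24.5% were called higher and 22.7% lower in the first experiment. In the second these shares were 36.6% and 39.4%, and nothing is read from the counts of neighbours.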
